A study of Mus musculus with 9 samples.

Results

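The genes described here are 10 that stand at the output of the ERK branch of the MAP kinase pathway: the transcription factor genes Egr1, Egr2 and Egr3, the phosphatase genes Dusp1, Dusp4, Dusp5 and Dusp6, and the Sprouty genes Spry1, Spry2 and Spry4. They were chosen by name, with earlier results of these data known, from the deposited table of 24062 gene symbols. All 10 were among the 14223 genes that passed the filter on low counts. RNA-seq had been done on 9 libraries of C57BL/6 mouse embryonic fibroblasts, which are connective tissue cells cultured from embryos, 3 libraries in each of 3 groups. The control group carried an empty lentivirus, the p21 group a lentivirus for the cyclin-dependent kinase inhibitor p21 (Cdkn1a), and the p16 group one for the inhibitor p16 (Cdkn2a). RNA was taken on day 4, and all 3 groups are labelled non-senescent. The vector promoter and the origin of the replicates (embryos, pools or cultures) are not given in the sources used here, so p-values measure the spread between these libraries, which may in part be technical.

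Growth factor receptors activate ERK through RAS, RAF and MEK, and active ERK switches on immediate early genes such as the EGR factors, which are zinc finger transcription factors. ERK also induces its own brakes. Dusp4 and Dusp5 encode nuclear phosphatases and Dusp6 a cytoplasmic phosphatase that take the activating phosphates off MAP kinases, Dusp5 and Dusp6 acting mainly on ERK, and Sprouty proteins dampen the signal between receptor and RAF. Dusp1 encodes a nuclear phosphatase with a preference for the stress kinases p38 and JNK, and its transcript is induced by stress and glucocorticoids as well as by mitogens.

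The promoters of Dusp1, Dusp5 and Dusp6 are shown because these phosphatase genes rose by different amounts with p21. Of the 10 genes, 6 matched the RefSeq promoter table (GRCm38.p6): Egr2, Dusp1, Dusp5, Dusp6, Spry1 and Spry2. Each sequence runs 5′ to 3′ along the gene's strand from 250 to 51 bases before the RefSeq start. Capitals mark the cyclic AMP response element TGACGTCA, its half-site TGACG on either strand, and the CArG box, the motif of serum response factor.
Dusp1 (chr17:26508523-26508722, minus strand): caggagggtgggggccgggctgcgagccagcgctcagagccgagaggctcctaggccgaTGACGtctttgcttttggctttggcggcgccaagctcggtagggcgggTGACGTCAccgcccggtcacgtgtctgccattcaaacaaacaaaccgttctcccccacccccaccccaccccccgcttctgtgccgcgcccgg
Dusp5 (chr19:53528895-53529094, plus strand): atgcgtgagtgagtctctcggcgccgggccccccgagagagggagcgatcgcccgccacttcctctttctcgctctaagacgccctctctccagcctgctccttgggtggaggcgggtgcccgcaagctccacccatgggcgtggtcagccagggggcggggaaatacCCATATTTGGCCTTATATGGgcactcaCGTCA
Dusp6 (chr10:99262981-99263180, plus strand): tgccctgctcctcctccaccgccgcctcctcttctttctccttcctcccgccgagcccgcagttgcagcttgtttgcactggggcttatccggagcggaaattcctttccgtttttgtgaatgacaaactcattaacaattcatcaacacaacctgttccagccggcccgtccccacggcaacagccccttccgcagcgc

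Within this window Dusp1 held 1 full cyclic AMP response element, which is in 0.828% of 32851 promoter windows of the same length searched on both strands, and a separate half-site further upstream. The half-site, which also lies within the full element, is in 12.7% of windows. Dusp5 held 2 CArG boxes next to each other and 1 half-site at the end of the window. A CArG box is in 1.16% of windows, and also lay in 4 of the 5 windows listed for Egr2. Dusp6, Spry1 and Spry2 held none of these motifs. The half-site also lay in some of the Egr2 windows. None of the 6 genes held the AP-1 motif TGANTCA (5.57% of windows) or the EGR motif GCGNGGGCG (3.04%). The ETS motif CCGGAA (8.03%) was found for Egr2 only. A match is a run of letters, and binding was not measured.

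The libraries held 44455730 to 63152239 counts, and the genes described here had between 329 and 7121 counts per library. Cdkn1a stood at 1428 to 1773 CPM (the usual depth-normalised count, here on TMM-scaled library totals) in the p21 libraries against 349.8 to 374 in the controls, and Cdkn2a at 1576 to 1927 CPM in the p16 libraries against 34.7 to 42.2. All 12 fibroblast markers checked were detected, although Dcn (2.26 to 4.12 CPM) and Lum (0.412 to 1.0 CPM) were low. Their sum was 38137 to 43258 CPM in the controls, 44501 to 48163 with p16 and 46890 to 48288 with p21, both above the controls. The replicate 3 library of each group stood apart, with Xist at 181 to 250.8 CPM against at most 6.95 CPM in replicates 1 and 2. The spread between replicates was thus not technical alone. Libraries with the same replicate number varied together, so values with the replicate number as a block are given where they change a call.

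With p21, Dusp1 and Dusp4 rose most, Dusp5, Spry4 and Dusp6 rose by less, and Egr3 fell. In all, 5 of the 10 genes rose, where 19.8% of all tested genes rose, and 1 fell, where 20.1% fell (edgeR quasi-likelihood test, adjusted p under 0.05). For 6 of the 10 every p21 library lay on 1 side of every control, as it did for 49.1% of all genes; calls in either direction made up 39.9%. Scaled by library totals alone, the calls over all genes went from 2816 higher and 2865 lower to 2173 and 3734 with p21, and from 825 and 791 to 617 and 1235 with p16. The rise of Dusp6 with p21 was then lost. With p16, 3 rose (Dusp4, Dusp1 and Spry4), where 5.8% of all genes rose, and 1 fell (Egr3), where 5.56% fell. For 5 of the 10 the libraries did not overlap, against 32.7% of all genes, and 11.4% of all genes were called in either direction. With the replicate block, 5 rose and 2 fell in each of these comparisons. In that fit 24.0% of all genes rose and 24.2% fell with p21 (48.2% in all), and 11.3% rose and 10.1% fell with p16 (21.4% in all). Both comparisons share the control libraries, so their values are not independent of each other.

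**Figure D1:**
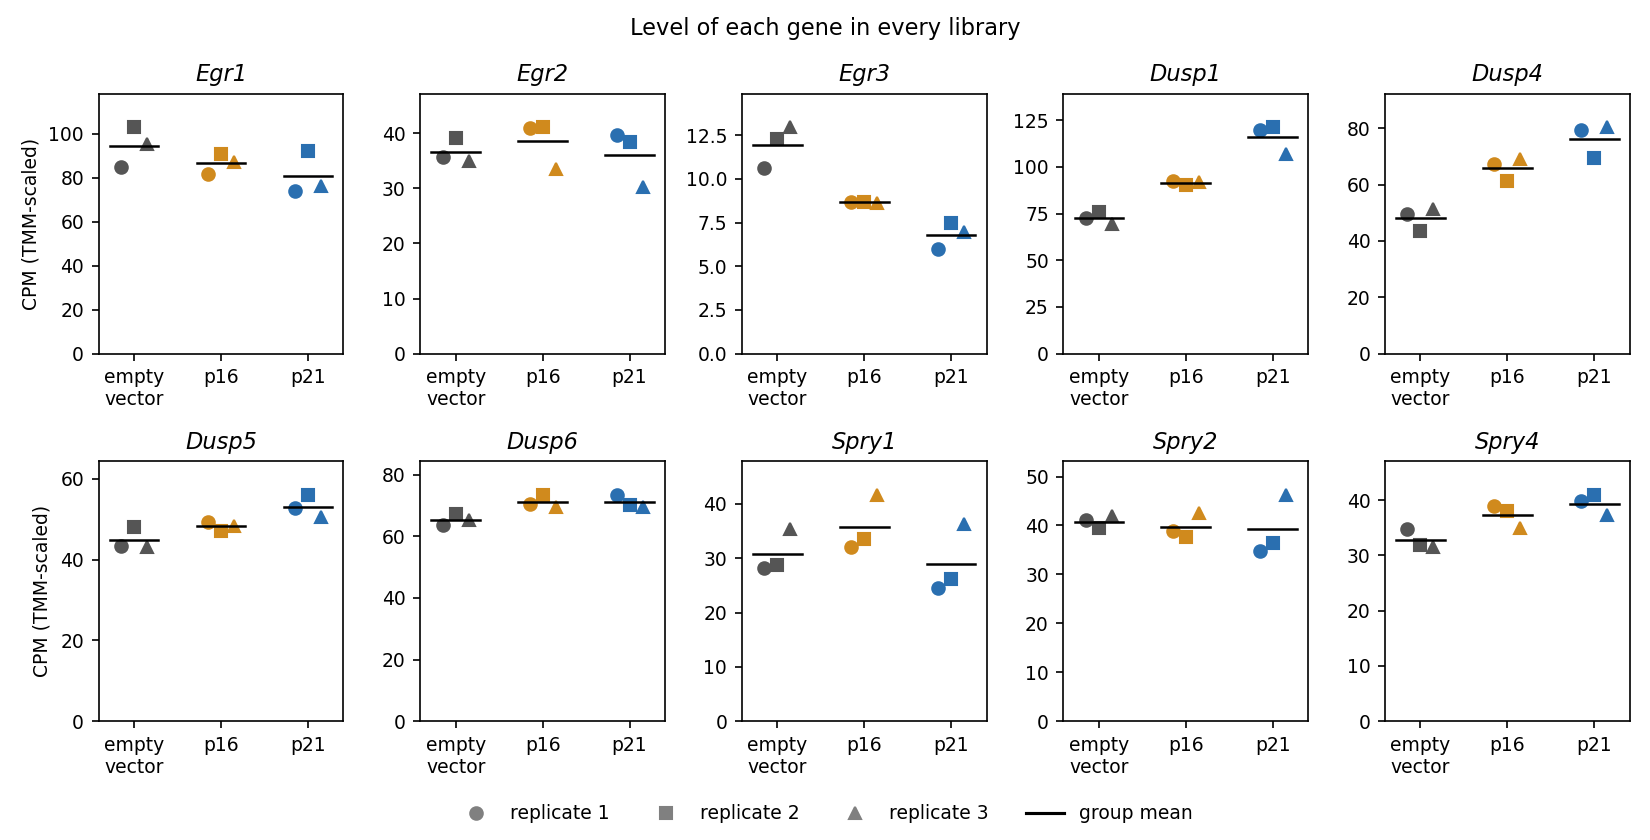
Level of each of the 10 genes in CPM (y axis, from 0) in the 3 libraries of each group (x axis), with the marker shape giving the replicate number and the bar the group mean. Dusp1 and Dusp4 are lowest with the empty vector, higher with p16 and highest with p21, with no overlap between groups, Egr3 runs the opposite way, and Spry1 is highest in the replicate 3 library of each group.

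Dusp1, on chromosome 17 (26505590 to 26562128, GRCm38), had the highest mean of the 10 per kilobase of exon in all 3 groups, although it overlapped Egr1 in the controls. This GENCODE span holds the promoter window shown above, which was placed by the RefSeq start. The exons merged over it, 3311 bases, set its level per kilobase. Its libraries stood at 72.6, 75.9 and 69.5 CPM with the empty vector, 92.3, 90.6 and 91.9 CPM with p16 and 120, 121 and 107 CPM with p21. Every p16 library lay above every control, and every p21 library above every p16 library. The rise with p21 was 1.6-fold (log2 fold change 0.67 ± 0.051 SE, edgeR adjusted p = 9.92e-07) and that with p16 was 1.26-fold (0.33 ± 0.051, edgeR adjusted p = 0.00197). The level with p21 was above that with p16 by 0.34 ± 0.051 on the log2 scale (edgeR adjusted p = 0.00100). All of these calls held under every alternative fit tried, including each library left out in turn.

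Dusp4, on chromosome 8 (34807297 to 34819894), moved in the same way. It stood at 49.5, 43.7 and 51.2 CPM in the controls, 67.4, 61.2 and 69.1 CPM with p16 and 79.3, 69.3 and 80.3 CPM with p21. The groups did not overlap, the lowest p21 library lying just above the highest p16 library. The log2 fold change was 0.67 ± 0.073 with p21 (edgeR adjusted p = 1.94e-05) and 0.45 ± 0.073 with p16 (edgeR adjusted p = 0.00252). In replicates 1, 2 and 3 the p21 library exceeded its control by 0.68, 0.67 and 0.65 on the log2 scale. The difference between p21 and p16, 0.21 ± 0.072, did not pass the test (edgeR adjusted p = 0.0756). The block brought it past the threshold (edgeR adjusted p = 2.86e-04), as did leaving out p21 replicate 2 (edgeR adjusted p = 0.0295) and DESeq2 (adjusted p = 0.0287).

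Dusp5 and Dusp6, the phosphatase genes most specific for ERK, changed by less. Dusp5, on chromosome 19 (53529109 to 53542431), stood at 43.3, 48.1 and 43.2 CPM in the controls, 49.4, 47.2 and 48.3 CPM with p16 and 52.7, 56.0 and 50.6 CPM with p21. The p21 libraries lay above all others, while those of p16 overlapped the controls. It rose by 0.24 ± 0.054 with p21 (edgeR adjusted p = 0.00324), and its value with p16 was 0.11 ± 0.054 (edgeR adjusted p = 0.236). An antisense gene model covers 22.1% of its exon bases, and since the library kit keeps no strand, reads of the pair cannot be told apart. Against p16, the p21 level differed by 0.14 ± 0.054 (edgeR adjusted p = 0.116), which only the replicate block, among the alternatives run, called (edgeR adjusted p = 0.0343).

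Dusp6, on chromosome 10 (99263231 to 99267489), stood at 63.8, 67.1 and 65.3 CPM in the controls, 70.6, 73.4 and 69.5 CPM with p16 and 73.2, 70.2 and 69.5 CPM with p21. Both groups lay above the controls and over each other. The log2 fold changes were 0.12 ± 0.043 with p21 (edgeR adjusted p = 0.0419) and 0.12 ± 0.042 with p16 (edgeR adjusted p = 0.0872, and 0.0312 with the replicate block). Leaving out control replicate 1 or 3, p21 replicate 1 or 2 or p16 replicate 1 ended the p21 call (highest edgeR adjusted p = 0.145). With only these groups fitted (0.0644), with no filter on low counts (0.0820) and with library totals (0.207) it was lost as well.

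Among the EGR factors Egr3 alone passed the test. Egr3, on chromosome 14 (70077203 to 70082614), was the least abundant of the 10, at 10.6, 12.3 and 12.9 CPM in the controls, 8.65, 8.70 and 8.62 CPM with p16 and 5.99, 7.46 and 6.95 CPM with p21. The groups did not overlap, and each p21 library lay below each p16 library. It fell by 0.81 on the log2 scale with p21 (SE 0.098, edgeR adjusted p = 4.22e-05) and by 0.46 with p16 (SE 0.096, edgeR adjusted p = 0.00980). The p21 level was below the p16 level by -0.35 ± 0.099 (edgeR adjusted p = 0.0359). That last call was lost without control replicate 2 or without any 1 of the p21 replicates 1 and 3 and the p16 replicates 1, 2 and 3 (highest edgeR adjusted p = 0.142), and with replicates 1 and 2 alone (0.0512).

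Egr1, on chromosome 18 (34859823 to 34864984), the best known immediate early factor, stood at 84.7, 103 and 95.3 CPM in the controls, 81.8, 90.7 and 87.3 CPM with p16 and 74.0, 92.1 and 76.2 CPM with p21. The groups overlapped, yet within each replicate number the p21 and the p16 library lay below its control. The log2 fold change with p21 was -0.22 ± 0.084 (edgeR adjusted p = 0.0506) and with p16 -0.12 ± 0.084 (edgeR adjusted p = 0.390). With the replicate block both passed (edgeR adjusted p = 9.76e-05 and 0.0413). The p21 value also passed without control replicate 1 (0.0207), without p21 replicate 2 (0.00512), with library totals (0.0239), with no filter (0.0265), in limma-voom (0.0398) and in DESeq2 (0.0193).

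Egr2, on chromosome 10 (67535475 to 67542188), which also drives myelination in Schwann cells, stood at 35.8, 39.2 and 34.9 CPM in the controls, 41.0, 41.1 and 33.5 CPM with p16 and 39.7, 38.4 and 30.3 CPM with p21. The replicate 3 library was the lowest in every group, and the groups overlapped. The values were -0.02 ± 0.10 with p21 (edgeR adjusted p = 0.894) and 0.07 ± 0.10 with p16 (edgeR adjusted p = 0.704), and neither passed with the block. With p21 the sign turned without control replicate 2 or p21 replicate 3.

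The Sprouty genes differed among themselves. Spry4, on chromosome 18 (38586247 to 38601415), stood at 34.7, 31.9 and 31.5 CPM in the controls, 38.9, 38.1 and 35.0 CPM with p16 and 39.8, 40.9 and 37.4 CPM with p21. All p16 and p21 libraries lay above the controls. It rose by 0.27 ± 0.056 with p21 (edgeR adjusted p = 0.00238) and by 0.19 ± 0.056 with p16 (edgeR adjusted p = 0.0466). Leaving out control replicate 2 or 3, p16 replicate 1 or 2 or p21 replicate 1 ended the p16 call (highest edgeR adjusted p = 0.162), and so did library totals (0.0859).

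Spry1, on chromosome 3 (37639947 to 37644598), stood at 28.3, 28.8 and 35.3 CPM in the controls, 32.2, 33.6 and 41.7 CPM with p16 and 24.6, 26.1 and 36.3 CPM with p21. The replicate 3 library was the highest of each group, so the groups overlapped. Each p16 library exceeded the control of its number, by 0.19, 0.22 and 0.24 on the log2 scale. The p16 value was 0.22 ± 0.14 (edgeR adjusted p = 0.358, and 0.00393 with the replicate block). It was 0.096 without p16 replicate 3 and 0.32 without control replicate 3, and a fit of replicates 1 and 2 alone called it (edgeR adjusted p = 0.0405). The p21 value was -0.08 ± 0.14 (edgeR adjusted p = 0.670), was past the threshold in a fit of replicates 1 and 2 alone (-0.17, edgeR adjusted p = 0.0360), and turned in sign without control replicate 3 or p21 replicate 1. Between p21 and p16 the difference was -0.30 ± 0.14 (edgeR adjusted p = 0.185). It was past the threshold with the block (edgeR adjusted p = 8.67e-05), without p21 replicate 3 (0.0166) and with replicates 1 and 2 alone (6.95e-04). A gene model on the opposite strand shares 24.4% of the exon bases of Spry1.

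Spry2, on chromosome 14 (105891947 to 105896819), stood at 41.0, 39.4 and 41.9 CPM in the controls, 38.9, 37.6 and 42.6 CPM with p16 and 34.9, 36.4 and 46.2 CPM with p21. The p21 libraries of replicates 1 and 2 lay below every other library, and that of replicate 3 above every other. The values were -0.06 ± 0.089 with p21 (edgeR adjusted p = 0.646) and -0.04 ± 0.088 with p16 (edgeR adjusted p = 0.838). Without p21 replicate 3 the p21 value was -0.19 (edgeR adjusted p = 0.0261), and in a fit of replicates 1 and 2 alone it was -0.18 (edgeR adjusted p = 0.0211).

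**Figure D2:**
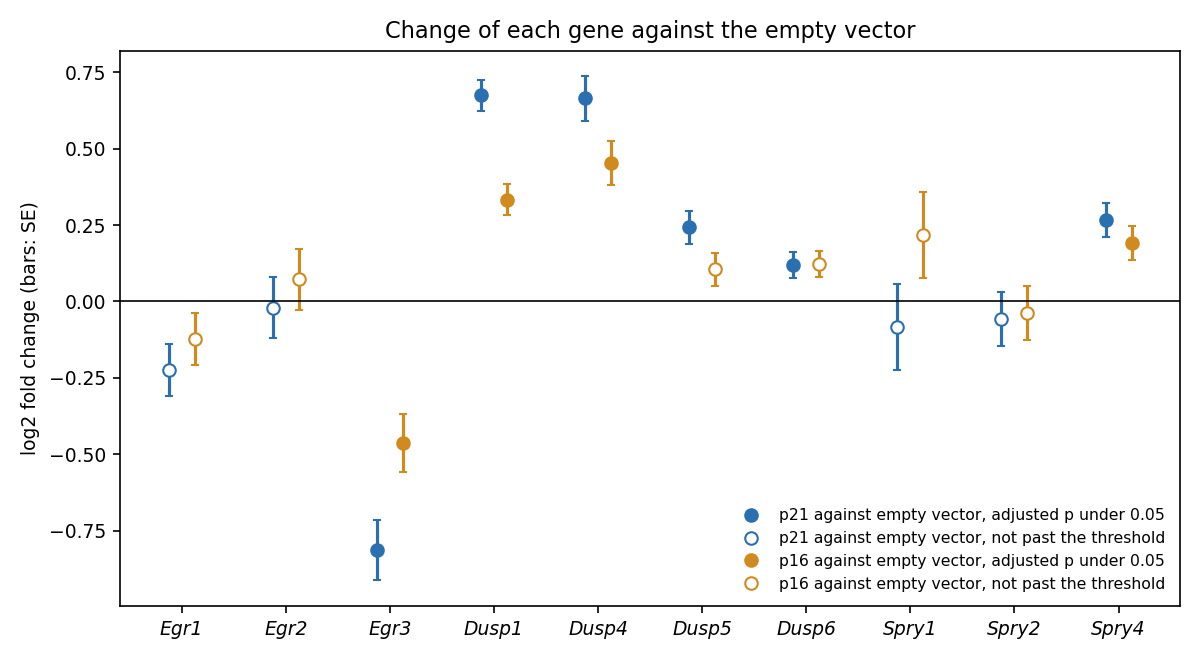
Log2 fold change (y axis, bars SE) of each gene with p21 and with p16 against the empty vector, filled where the edgeR adjusted p was under 0.05. Dusp1 (0.67) and Dusp4 (0.67) are the highest with p21 and Egr3 (-0.81) the lowest, while Egr2, Spry1 and Spry2 lie within 1 SE or so of 0 with p21.

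Compared directly, p21 and p16 differed for 2 of the 10 genes, Dusp1 higher and Egr3 lower with p21, where 13.1% of all tested genes passed (6.15% higher and 6.91% lower). Over all genes, library totals moved these calls from 875 higher and 983 lower to 735 and 1254. The libraries did not overlap for 4 of the 10 (Egr3, Dusp1, Dusp4 and Dusp5), against 31.2% of all genes. With the replicate block 5 passed, where 22.6% of all genes did: Dusp1, Dusp4 and Dusp5 higher and Egr3 and Spry1 lower with p21. Dusp6 differed by -0.003 ± 0.042 (edgeR adjusted p = 0.977), and a p that misses the threshold does not show equal levels.

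Per kilobase of exon (GENCODE M21 exons merged over all transcripts), the order of levels in the controls began with Dusp1 at 21.9, Egr1 at 21.03 and Dusp6 at 20.9 CPM per kilobase, which overlapped. Spry2 (19.5), Dusp5 (18.1) and Dusp4 (17.6) followed, each overlapping the next. Egr1 also overlapped Spry2 and Dusp5. Egr2 (10.8) and Spry1 (10.6) overlapped each other, and Spry4 (6.89) and Egr3 (2.71) stood apart below them. With p21 the order was Dusp1 at 35.0, Dusp4 at 27.8, Dusp6 at 22.7, Dusp5 at 21.5, Spry2 at 18.8 and Egr1 at 18.01. Dusp1 and Dusp4 there overlapped neither each other nor Dusp6, whereas Dusp6, Dusp5, Spry2 and Egr1 each overlapped the next. Dusp4 thus went from place 6 in the controls to place 2 with p21, and by its mean also stood at place 2 with p16 (24.1 CPM per kilobase), where it overlapped Dusp6.

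The other genes were then set beside Dusp1 as the log2 ratio of Dusp1 counts to the gene's counts within a library, which does not depend on library scaling. For Dusp6 this ratio was 0.15 ± 0.054 (SD, n = 3) in the controls, 0.36 ± 0.054 with p16 and 0.71 ± 0.083 with p21, and no groups overlapped. The p21 ratio exceeded the control ratio by 0.56, a factor of 1.47. In an exact two-sided permutation test it gave p = 0.1, the smallest that 3 libraries against 3 allow. The ratio to Dusp5 rose from 0.70 ± 0.044 to 0.92 ± 0.020 with p16 and 1.13 ± 0.055 with p21, again with no overlap.

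Of the 6 DUSP and Sprouty feedback genes, 5 had a ratio that was higher with p21 without overlap, by 0.41 (Spry4) to 0.77 (Spry1). All 3 EGR factors did so too, by 0.70 (Egr2) to 1.49 (Egr3). The background was high, as the ratio of Dusp1 to 80.4% of all tested genes was higher with p21 without overlap. The 8 of 9 here are a share near that background. With p16, 3 of the 6 feedback genes (Dusp5, Dusp6 and Spry2) and all 3 EGR factors had a higher ratio without overlap, against 69.8% of all genes. Between p21 and p16, 7 of the 9 ratios were higher with p21 without overlap, against 66.7% of all genes.

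Dusp4 was the exception with p21. Its ratio was 0.60 ± 0.18 (SD, n = 3) in the controls and 0.61 ± 0.20 with p21, a difference of 0.01 (exact permutation p = 0.9), and 0.48 ± 0.079 with p16, a difference of -0.12 (exact permutation p = 0.5). The sign of the p21 difference turned when control replicate 1 or 3 or p21 replicate 2 was left out (-0.09 to 0.11). With 3 libraries a group, a p of this size does not show that Dusp1 and Dusp4 moved alike.

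**Figure D3:**
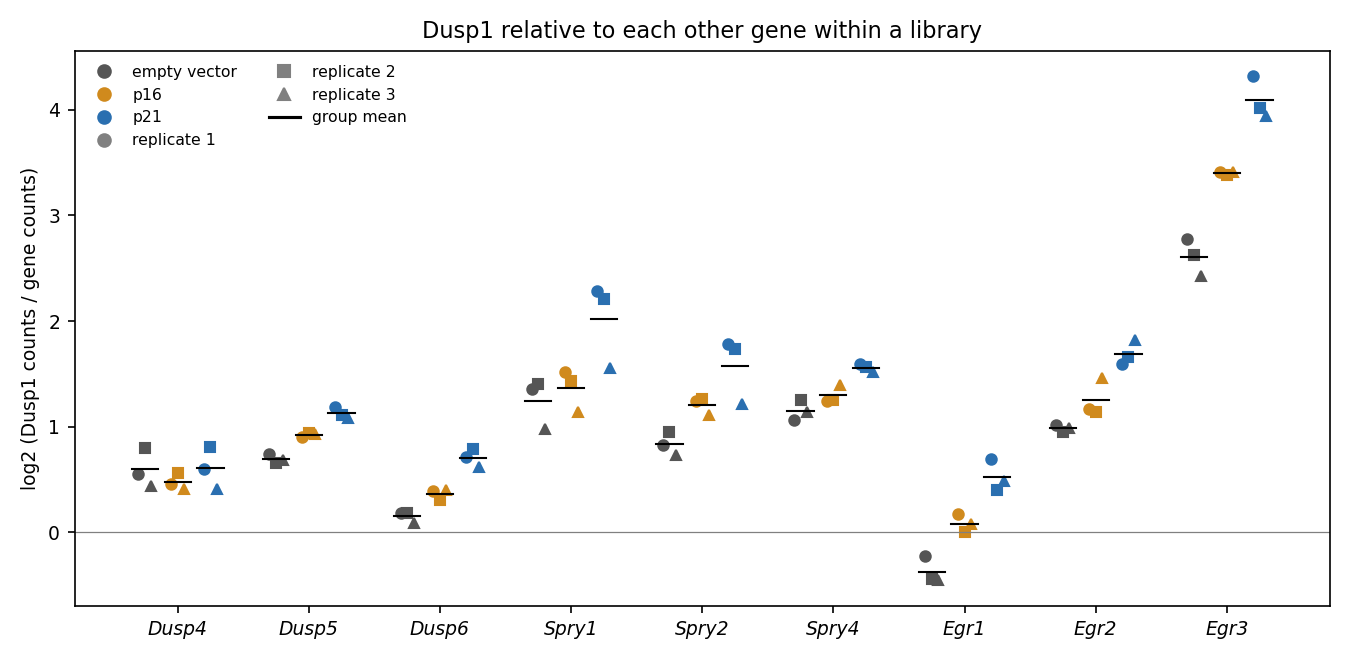
Log2 ratio of Dusp1 counts to the counts of each other gene (y axis) in every library, coloured by group, with the marker shape giving the replicate number and the bar the group mean. The ratio is lowest in the controls and highest with p21 for Dusp5, Dusp6 and the EGR factors, while for Dusp4 the groups overlap.

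Further genes of these families went both ways with p21. Of 14 tested, 3 rose and 7 fell (median log2 fold change -0.05, against 0.001 over all tested genes, of which 19.8% rose and 20.1% fell). Egr4 rose from 0.361 ± 0.096 to 1.05 ± 0.29 CPM (1.54 ± 0.31, edgeR adjusted p = 0.00195), the opposite direction to Egr3 and at a low level. Nab1 and Nab2, which encode corepressors that bind EGR factors, changed by -0.31 ± 0.047 and -0.19 ± 0.039. The phosphatase gene Dusp14 changed by 0.39 ± 0.068, and Dusp7 (-0.36 ± 0.052), Dusp16 (-0.24 ± 0.046) and Dusp9 (-0.20 ± 0.064) fell. Of the SPRED genes, relatives of Sprouty that act on RAS, Spred3 changed by 0.33 ± 0.065, Spred1 by -0.15 ± 0.053 and Spred2 by -0.20 ± 0.067. The calls of Dusp9, Spred1 and Spred2 were lost with 1 of several libraries left out: Dusp9 without control replicate 2 or 3 or p21 replicate 3 (highest edgeR adjusted p = 0.0920), Spred1 without control replicate 1 or 3 or p21 replicate 2 (0.126), and Spred2 without control replicate 1 or 2 or p21 replicate 3 (0.123). With p16, 2 of the 14 passed, against 11.4% of all genes: Nab1 (-0.17 ± 0.046) and Dusp7 (-0.20 ± 0.052). That of Nab1 was lost without control replicate 1 or 3, p16 replicate 1 or 2 or p21 replicate 1 (highest edgeR adjusted p = 0.155), and that of Dusp7 without control replicate 1 or 2 or any 1 of the 3 p16 replicates (0.110).

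The cascade from receptor to ERK had 11 of 36 genes higher and 7 lower with p21 (median 0.03), against 19.8% and 20.1% of all genes. With p16, 3 were higher and 3 lower (median 0.02), against 5.8% and 5.56%, and 13 passed with the replicate block, against 21.4%. Pea15a, which encodes a cytoplasmic anchor of ERK, rose from 227 ± 7.62 to 297 ± 6.06 CPM with p21 (0.39 ± 0.033, edgeR adjusted p = 2.46e-06) and by 0.24 ± 0.033 with p16. The kinase gene Rps6ka2, of the RSK family that ERK activates, rose by 0.37 ± 0.047 and 0.26 ± 0.047. With p21 the RAS relative Rras2 rose by 0.33 ± 0.047 and the adaptor gene Shc1 by 0.27 ± 0.035. The receptor gene Pdgfra, named after its value was seen, fell furthest in the list, from 33.5 ± 2.70 to 16.8 ± 5.03 CPM (-0.99 ± 0.18).

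Of 26 other transcripts of the ERK output, 8 rose and 8 fell with p21 (median -0.04), where all genes also split evenly (19.8% and 20.1%). With p16, 3 rose and 1 fell (median -0.04), against 5.8% and 5.56% of all genes, and 9 passed with the block, against 21.4%. Ier3, an early response gene, rose by 0.47 ± 0.044 with p21 and 0.22 ± 0.044 with p16, and the cyclin D1 gene Ccnd1 by 0.39 ± 0.057 and 0.38 ± 0.057. Phlda1 rose by 0.37 ± 0.056 with p21 and by 0.19 with p16 (edgeR adjusted p = 0.0419). Its p16 call was lost when some single libraries were left out (highest edgeR adjusted p = 0.121). Errfi1, which encodes a feedback inhibitor of the EGF receptor, went from 186 ± 4.83 to 143 ± 6.95 CPM with p21 (-0.37 ± 0.039, edgeR adjusted p = 1.37e-05) and changed by -0.22 ± 0.039 with p16. It thus went the opposite way to the feedback genes Dusp4 and Spry4.

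Of 33 other immediate early genes, 7 rose and 9 fell with p21 (median -0.04), shares near the 19.8% and 20.1% of all genes. With p16, 5 rose and 1 fell (median 0.01), against 5.8% and 5.56%, and 10 passed with the block, against 21.4%. The small MAF factor gene Mafk rose from 46.3 ± 1.18 to 70.8 ± 2.62 CPM with p21 (0.61 ± 0.045, edgeR adjusted p = 7.58e-07) and by 0.31 ± 0.045 with p16. Maff rose by 0.41 ± 0.046 and 0.23 ± 0.046, and the matrix gene Ctgf by 0.20 ± 0.032 and 0.19 ± 0.032. Zfp36l1, which encodes a protein that promotes mRNA decay, changed by -0.47 ± 0.050 with p21 and by -0.22 with p16 (edgeR adjusted p = 0.0152). Its p16 call was lost when some single libraries were left out (highest edgeR adjusted p = 0.0686).

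Of 24 JNK and p38 stress kinase genes, 8 rose and 7 fell with p21 (median 0.05), against 19.8% and 20.1% of all genes. With p16, 1 rose and 2 fell (median -0.02), near the 11.4% of all genes called. Gadd45g, whose product activates the kinases upstream of p38 and JNK, rose by 0.47 ± 0.036 with p21 and 0.30 ± 0.036 with p16. Mapk14, which encodes p38 alpha, rose by 0.24 ± 0.037 with p21 and the downstream kinase gene Mapkapk3 by 0.36 ± 0.065. Rps6ka4, which encodes a nuclear kinase downstream of ERK and p38, changed by -0.25 ± 0.033 with p21. With p16 it changed by -0.13 (edgeR adjusted p = 0.0229), a call lost when some single libraries were left out (highest edgeR adjusted p = 0.0914).

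Glucocorticoid response genes, listed because glucocorticoids induce Dusp1, also went both ways: 6 of 14 rose and 3 fell with p21 (median 0.11), against 19.8% and 20.1% of all genes. With p16, 3 rose and 2 fell (median 0.09), against 5.8% and 5.56%, and 8 passed with the block, against 21.4%. Pdk4, a kinase gene of fuel metabolism, rose from 21.01 ± 0.242 to 38.7 ± 1.58 CPM with p21 (0.88 ± 0.052, edgeR adjusted p = 1.46e-07) and by 0.56 ± 0.052 with p16. The metallothionein gene Mt1 rose by 0.34 ± 0.058 with p21. Fkbp5, a classical glucocorticoid target, fell from 47.6 ± 1.2 to 34.1 ± 2.52 CPM with p21 (-0.48 ± 0.065, edgeR adjusted p = 9.31e-05). With p16 it changed by -0.22 (edgeR adjusted p = 0.0478), a call lost when some single libraries were left out (highest edgeR adjusted p = 0.182). Errfi1 is also in this list.

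**Figure D4:**
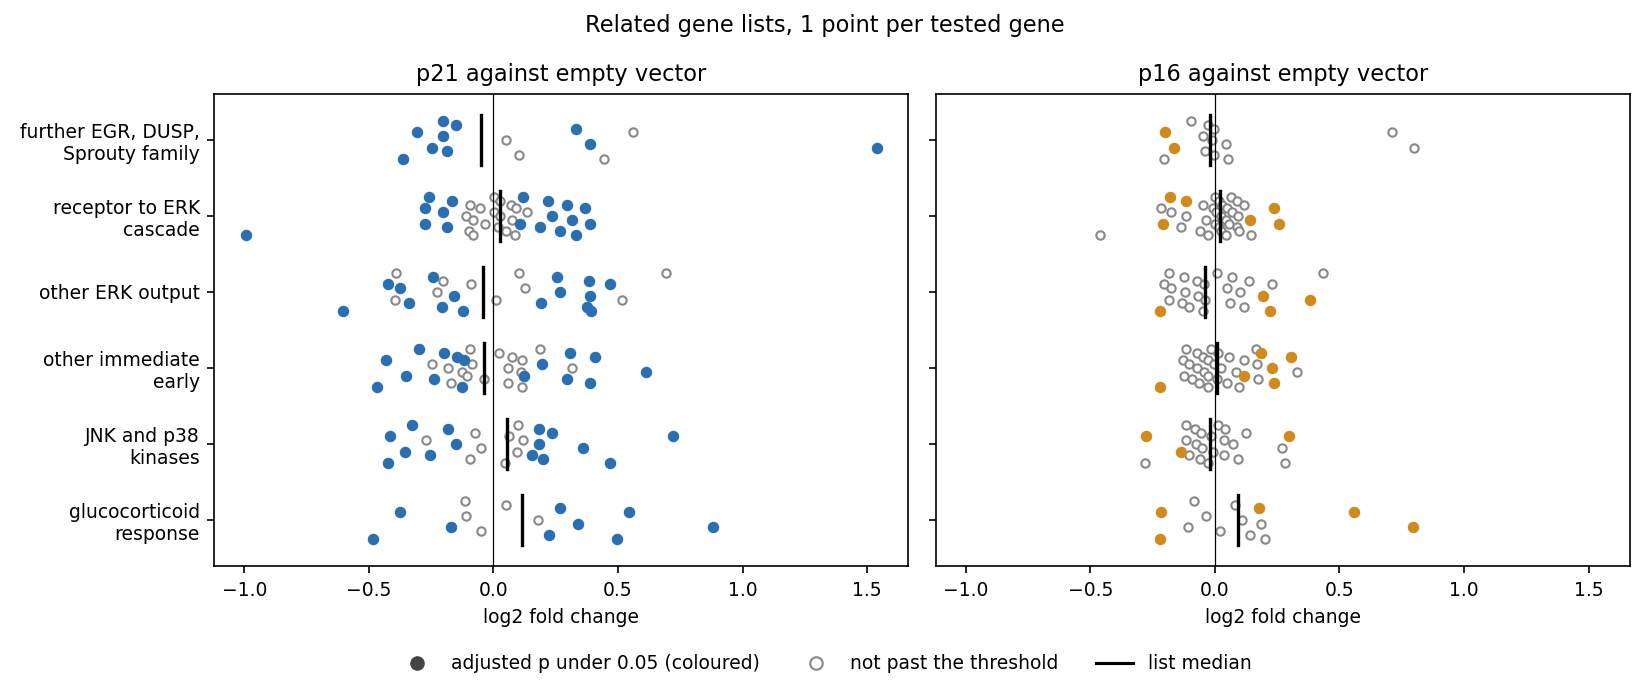
Log2 fold change (x axis) of each tested gene of 6 related lists with p21 (left) and p16 (right) against the empty vector, filled where the edgeR adjusted p was under 0.05, with the bar at the list median. Filled points lie on both sides of 0 in every list with p21, and the medians lie between -0.05 and 0.11.

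By the pattern over the 9 libraries, the genes nearest to Dusp1 among 10899 searched were Ifi30, Man2b2, Plcxd2, Fam214b and Sdc3, at a root mean square difference of 0.0421 to 0.0569 on the centred log2 scale, where the spread of Dusp1 itself was 0.281. The genes nearest to Egr1 were Adamtsl3, Parp2, Zfp628, Dus2 and Slc37a4 (0.0518 to 0.0590, own spread 0.144).

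The fibroblast markers and markers of other cells were checked in the same fits. Of all tested genes 19.8% rose and 20.1% fell with p21, and 5.8% rose and 5.56% fell with p16. With the block, 48.2% and 21.4% passed in either direction. Of the 12 fibroblast markers 4 rose and 3 fell with p21, and 1 rose and 0 fell with p16. With the block, 10 of them passed with p21 and 7 with p16. Counts for the Schwann, muscle, epithelial and endothelial lists rest on 2 to 5 tested genes each. Of the macrophage and leukocyte list 16 of 17 genes were in the table, at a summed 27.7 to 43.6 CPM in the controls, 46.2 to 63.6 with p21 and 35.7 to 62.9 with p16, none of them at 0 throughout a group. With p21, 7 of 15 tested rose. With p16 edgeR called 0 of 15, with 4 at an unadjusted p under 0.05, 1 called by DESeq2, 0 by limma-voom and 7 with the block. The Schwann and neural crest list summed to 1.2 to 2.56 CPM in the controls, 2.45 to 3.65 with p21 and 2.53 to 2.81 with p16, all 7 genes being detected in the controls. With p21, 2 of 5 tested rose, and with p16 edgeR called 0, where 2 had an unadjusted p under 0.05, DESeq2 called 1, limma-voom 0 and the block 1. Its defining gene Sox10 was low in all libraries, at 0.0722 to 0.128 CPM in the controls, 0.189 to 0.223 with p16 and 0.202 to 0.285 with p21. Skeletal muscle markers summed to 218 to 227 CPM in the controls, 589 to 676 with p21 and 328 to 347 with p16. The 3 of 3 tested (Des, Acta1 and Chrna1) rose in both comparisons. Most of the sum was Acta1 (123 to 138 CPM in the controls, 366 to 429 with p21) and Des (80.0 to 94.7 and 200 to 244). The muscle lineage factor genes Myod1, Myog, Myf5 and Pax7 stood at no more than 0.103 CPM in any library and were not tested. Pax7 was at 0 in the controls and Myf5 at 0 in both other groups. Endothelial (5.01 to 9.72 CPM) and epithelial markers (12.9 to 16.5 CPM) were low in all libraries, with Cldn5 and Krt14 at 0 in the controls, and 1 of 2 epithelial genes tested rose with p21. Of 4 endothelial genes edgeR called 0 with p21, with 1 at an unadjusted p under 0.05 and 0 called by DESeq2 or limma-voom and 1 with the block. Their summed level with p21 (7.61 to 9.72 CPM) lay above that of the controls (5.25 to 6.04 CPM). Macrophages also express Dusp1 and EGR factors, and the part of these cells in the values above was not tested. In bulk RNA, more cells of a type and more RNA per cell cannot be told apart.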

How the data were processed

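The authors deposited 1 table of unnormalised read counts, with genes as symbols. Their tools and build were, per the submitters' processing notes, TopHat2 2.0.14, Bowtie2 2.2.6, featureCounts 1.4.6 of Subread and mm10. The annotation and the strand and multimapping settings are not given in the sources used here. The model was run with edgeR 4.0.16 (R 4.3.3): filterByExpr by group (minimum count 10, minimum total 15), TMM scaling, 1 quasi-likelihood fit of all 9 libraries by group, a two-sided F test and Benjamini-Hochberg adjustment over all 14223 genes tested, at a threshold of 0.05. Each SE is the size of the log2 fold change divided by the root of F. Ratios to Dusp1 used a pseudocount of 0.5. Alternatives used DESeq2 1.42.0, limma 3.58.1 (voom), other scalings, no filter, subsets of libraries and the replicate block. The fit was tested on simulated counts with known changes. These were drawn without any likeness by replicate number, so that test could not show how such likeness affects the calls. Figures were drawn with Python 3.11.15 and matplotlib 3.10.9.

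Pairing by replicate number was checked on log2 CPM with group means removed. Across genes, r was 0.126 to 0.361 for libraries sharing a number, and for others -0.246 to 0.106. Libraries sharing a number were thus more alike, most clearly in replicate 3 (0.332 to 0.361, against 0.126 to 0.202 in replicates 1 and 2). The labels do not state a pairing, so the main fit has no block and its p-values leave this likeness out. Of 24062 symbols, 22750 matched GENCODE M21 (GRCm38). The genes and lists were chosen with earlier results of these data known. From each list the text names the up to 4 genes with the smallest adjusted p with p21 or p16, and every further family gene that passed in any comparison. The genes nearest in pattern to Dusp6 are not reported here. Calls of named genes outside the 10 in p21 against p16 are not described.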

Additional observations from a re-analysis of the deposited data

How the results depend on the processing

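Beside the changes given with each gene, the counts of calls moved by over 1.5 times in the following cases. With the replicate block, 3044 genes passed with p16 (1616 without it) and 3214 in p21 against p16 (1858), and 7 (4) and 5 (2) of the 10 genes described. With the block the lists gave 13 (6) for the receptor to ERK cascade, 9 (4) for other ERK output, 10 (6) for immediate early and 8 (5) for glucocorticoid response genes with p16. The block changed no other call of the 10 genes, and no gene named from the lists lost its call with it. With p16, fitting only the groups compared gave 10 cascade genes, where 1916 genes passed in all. Replicates 1 and 2 alone gave 8 ERK output genes, where 1515 passed in all. With each library left out in turn, 759 to 1894 genes passed with p16 and 1074 to 1810 in p21 against p16, with 1 to 3 of the 10 in the latter. The p16 lists then gave 0 to 2 further family, 2 to 8 cascade, 1 to 3 JNK and p38 and 3 to 6 glucocorticoid genes. Leaving out a library turned the sign of small values: with p21 Egr2 (-0.10 to 0.092, and 0.060 with replicates 1 and 2 alone), Spry1 (-0.28 to 0.025) and Spry2 (-0.19 to 0.022), and in p21 against p16 Egr2 (-0.18 to 0.020), Dusp6 (-0.027 to 0.019) and Spry2 (-0.16 to 0.060). The ratio of Dusp1 to Dusp4 with p21 ranged from -0.091 to 0.11 and that to Spry1 with p16 from -0.015 to 0.23. The ratio to Spry4 in p21 against p16 was 0.33 with replicates 1 and 2 alone, against 0.26. The cause of these shifts was not tested.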
